A study of Mus musculus with 10 samples.

Results

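The genes described are 9 nuclear effectors of Notch signalling, Hes1, Hes5, Hes6, Hes7, Hey1, Hey2, Heyl, Nrarp and Rbpj, taken by name from the 22180 genes measured. All 9 had a probe set of the array annotated with exactly 1 gene symbol. When a Notch receptor is bound by a ligand such as Jag1 on a neighbouring cell, its intracellular part is cut free and joins the DNA-binding protein Rbpj in the nucleus. The best known genes switched on in this way are the Hes and Hey genes, which encode basic helix-loop-helix repressors, and Nrarp, which encodes a small ankyrin repeat protein that limits the same pathway. In the liver, Jag1 and Notch signalling are known for their part in forming bile ducts around the portal vein. In blood vessels the Hey genes are known for their part in arterial identity and in the mural cells that wrap the vessel wall.

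Expression was measured in portal tracts, the places in the liver where a bile duct runs beside a branch of the portal vein and of the hepatic artery, cut by laser capture from frozen sections of 1-week-old mice. RNA from 12 to 20 tracts per sample was hybridized to 10 single-colour arrays. A group of 5 control samples, for which the strain C57Bl/6J is given, was compared with 5 samples labelled Jag1+/-Rfng+/-, heterozygous at Jag1 and at Rfng, the gene of the glycosyltransferase Radical fringe that modifies Notch receptors. The kind of Jag1 and Rfng allele, the strain of the Jag1+/-Rfng+/- mice and the genotype of the controls are not stated in the labels. The comparison addresses how duct remodelling and differentiation in the tracts change with the loss of 1 copy of each gene. The labels do not tie samples to mice, and samples of a group may share an animal. The p-values therefore cover only the spread between these samples, and are too small if they do.

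The values are log2 expression values per probe set. Jag1+/-Rfng+/- replicate 5 stood apart, with correlations across probe sets of 0.956 to 0.963 with the other arrays, which correlated at 0.969 or more among themselves. Its sample name ends in "excl", which the labels do not explain. The labels carry 4 different sample-name numbers, and 1 of them is shared by 7 arrays, 3 of them control and 4 Jag1+/-Rfng+/-. Hepatocyte genes were bright on these arrays, with Alb, the gene of serum albumin, at a mean of 12.18, so the captured tissue held hepatocyte RNA besides that of the tract. All 15 genes of a list of endothelial markers and 7 of 9 measured genes of a list of bile duct markers had a mean above 2.91. That is the highest reading of genes that should be absent, which are Xist on arrays where it is low and Y-linked genes on the 4 arrays where Xist is high. The lowest such reading was 1.82. Both genes named in the genotype had lower means in its samples. Jag1 read 5.95, 6.59, 6.57, 4.59 and 4.90 in control replicates 1 to 5 and 3.75, 4.76, 4.70, 5.06 and 3.68 in Jag1+/-Rfng+/- replicates 1 to 5. Control replicates 4 and 5 thus lay among the Jag1+/-Rfng+/- samples. The difference in Jag1 was -1.33 on the log2 scale (exact permutation test, two-sided, p = 0.0556). Rfng did not overlap between the groups, with 4.61 to 5.13 in controls and 4.19 to 4.57 in Jag1+/-Rfng+/- samples, a difference of -0.46 (exact permutation p = 0.00794, the smallest that 5 samples against 5 allow).

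Across the effector genes, the Hey genes read lower in the Jag1+/-Rfng+/- samples and the Hes genes did not shift together. Heyl was lower by 0.92 on the log2 scale, Hey1 by 0.75 and Hey2 by 0.45, while the 4 Hes genes lay between -0.18 and 0.17. None of the 9 genes passed limma's test with Benjamini-Hochberg adjustment over all genes. In that test 2 genes of the 22180, Slpi and Mme, passed, which is 0.00902% of those tested. At an unadjusted limma p under 0.05, 3 of the 9 genes were lower, namely Hey1, Hey2 and Heyl, and 0 were higher, against 3.79% of all genes lower and 2.98% higher (6.76% in either direction). Of the 9 genes 6 had a lower mean in Jag1+/-Rfng+/- samples, against 51.5% of all genes. The median difference was -0.18 over the 9 genes, -0.75 over the 3 Hey genes, 0.03 over the 4 Hes genes and -0.01 over all genes. Of the Hes genes only Hes1, with a mean of 5.50 over the 10 arrays, read well above 2.91, the highest reading of absent genes. Hes5, Hes6 and Hes7 had means of 3.35, 3.71 and 3.91, and Hey2 of 3.49. The Hes median thus rests largely on low readings. A difference of at least 1.5-fold downward was seen in 2 of the 9, Hey1 and Heyl, against 1.42% of all genes. In 0 of the 9 genes were the groups fully apart, against 1.38% of all genes. Because tracts hold many cell types, fewer cells that express a gene and less RNA per cell cannot be told apart in any of these values.

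**Figure D1:**
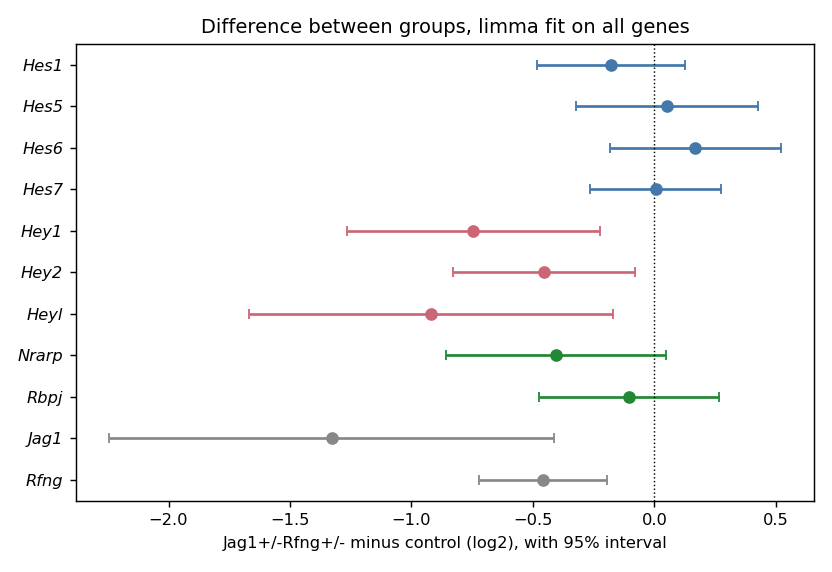
Difference between the groups (x axis, Jag1+/-Rfng+/- minus control, log2) for each effector gene and for Jag1 and Rfng, as points with limma's 95% confidence intervals. The intervals of Hey1, Hey2 and Heyl lie below 0 and those of the 4 Hes genes span it, before any adjustment for the number of genes tested.

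The RefSeq promoter table (GRCm38.p6) held 6 of the 9 genes, and Hes1, Hey1 and Heyl were not analysed here. The 250 bases before the start site are shown for Hey2 and Nrarp, which varied with Jag1 over the arrays as described further on, and for Hes5 and Hes7, for which no relation to Jag1 passed the test. Capitals mark matches, on either strand, to the Rbpj core motif TGGGAA and to 3 motifs bound by Hes and Hey proteins, the E box CACGTG, the class C site CACGCG and the N box CACNAG. The Hey2 window is chr10:30842784-30843033 (minus strand), the Nrarp window chr2:25180508-25180757, the Hes5 window chr4:154960673-154960922 and the Hes7 window chr11:69120203-69120452 (plus strand for these 3).
Hey2: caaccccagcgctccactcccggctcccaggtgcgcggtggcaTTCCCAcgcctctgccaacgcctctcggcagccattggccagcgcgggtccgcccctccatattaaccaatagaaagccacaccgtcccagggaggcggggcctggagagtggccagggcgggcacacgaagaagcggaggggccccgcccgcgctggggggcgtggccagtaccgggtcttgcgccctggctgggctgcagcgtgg
Nrarp: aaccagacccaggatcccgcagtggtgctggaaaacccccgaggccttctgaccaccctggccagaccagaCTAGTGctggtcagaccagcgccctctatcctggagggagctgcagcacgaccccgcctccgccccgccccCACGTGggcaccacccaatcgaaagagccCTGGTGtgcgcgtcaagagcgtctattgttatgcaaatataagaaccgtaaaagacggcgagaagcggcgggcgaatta
Hes5: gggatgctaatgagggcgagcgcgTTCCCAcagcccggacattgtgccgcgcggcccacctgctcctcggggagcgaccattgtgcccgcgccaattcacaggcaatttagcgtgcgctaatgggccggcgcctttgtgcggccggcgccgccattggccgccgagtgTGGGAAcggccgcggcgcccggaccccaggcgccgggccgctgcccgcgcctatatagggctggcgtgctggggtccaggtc
Hes7: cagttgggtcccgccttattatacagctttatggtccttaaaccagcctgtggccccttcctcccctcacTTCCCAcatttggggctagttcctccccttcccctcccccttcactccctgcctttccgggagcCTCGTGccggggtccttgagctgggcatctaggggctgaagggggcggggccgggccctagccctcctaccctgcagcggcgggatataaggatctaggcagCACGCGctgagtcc

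TGGGAA occurs in 21.6% of the 32851 windows of this length in the table, CACGTG in 6.02%, CACGCG in 7.62% and CACNAG in 36.7%. The Hes5 window holds TGGGAA once on each strand, at bases 82 to 77 and, on the opposite strand, at bases 226 to 221 before the start. The Hey2 window holds it once, on the opposite strand at bases 207 to 202, and the Hes7 window once, on the opposite strand at bases 180 to 175. The Nrarp window has no TGGGAA, and holds the E box at bases 108 to 103 and the N box at 2 places on the opposite strand, at bases 179 to 174 and 79 to 74. The Hes7 window also holds the class C site at bases 14 to 9 and an N box on the opposite strand at bases 116 to 111. A match is a description of the letters only. Among the windows shown, TGGGAA was in those of Hey2, Hes5 and Hes7. Hes6 and Rbpj, for which no relation to Jag1 passed either, are not shown. The Hes6 windows hold no TGGGAA and the Rbpj windows hold it. Whether the motif goes with the relation to Jag1 was not tested.

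Hes1 encodes the repressor that is the most widely used readout of Notch activity and that is known to be needed for bile duct formation. It read 5.79, 5.59, 5.52, 5.42 and 5.61 in control replicates 1 to 5 and 5.57, 5.34, 5.67, 5.50 and 4.94 in Jag1+/-Rfng+/- replicates 1 to 5. Replicate 5 of the latter, the array that stood apart, was the lowest, replicate 2 also lay below every control, and the other 3 lay among the controls. The means were 5.59 ± 0.14 (SD, n = 5) and 5.41 ± 0.29 (SD, n = 5), a difference of -0.18 with a 95% confidence interval from -0.48 to 0.12. This did not pass limma's test (adjusted p = 0.850) or the exact permutation test (p = 0.254). Without Jag1+/-Rfng+/- replicate 5 the difference was -0.06.

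None of the other Hes genes separated the groups. Hes5, a Notch target best known in the nervous system, read 3.52, 3.27, 3.83, 2.96 and 3.05 in controls and 3.30, 3.64, 3.53, 3.05 and 3.38 in Jag1+/-Rfng+/- samples. The groups overlapped along most of their range, with a difference of 0.05 (95% interval -0.32 to 0.43). Hes6, which encodes a protein known to oppose Hes1, read 3.81, 3.72, 3.66, 3.54 and 3.41 in controls and 3.22, 3.87, 4.15, 3.99 and 3.76 in Jag1+/-Rfng+/- samples. Here Jag1+/-Rfng+/- replicate 1 was the lowest array and replicates 2, 3 and 4 were above every control, with a difference of 0.17 (95% interval -0.18 to 0.52). Without that replicate 1 the difference in Hes6 was 0.31 (exact permutation p = 0.0317), and without replicate 3 it was 0.08. Hes7, which encodes an oscillating repressor of the segmentation clock, read 3.97, 3.59, 3.92, 4.22 and 3.86 in controls and 3.68, 3.93, 3.98, 3.97 and 4.02 in Jag1+/-Rfng+/- samples. Both groups had a mean near 3.9, with a difference of 0.01 (95% interval -0.26 to 0.28). Its sign was negative after quantile normalization, median centring or cyclic loess of the arrays. The adjusted limma p-values of Hes5, Hes6 and Hes7 were 0.970, 0.874 and 0.996. Hes5 and Hes6 were dim, with means over the 10 arrays of 3.35 and 3.71, under the median over all genes, 3.74. A second probe set of Hes5 followed the first poorly over the 10 arrays (r = -0.08, a description), and so did the 2 probe sets of Hes7 (r = -0.40).

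Hey1 encodes a Hes-related repressor of vessels and mesenchyme. It read 6.07, 5.22, 5.37, 4.99 and 5.85 in controls and 4.14, 4.72, 4.88, 5.32 and 4.70 in Jag1+/-Rfng+/- samples. Of the Jag1+/-Rfng+/- samples 4 lay below every control, and replicate 4 lay among them. The means were 5.50 ± 0.45 (SD, n = 5) and 4.75 ± 0.42 (SD, n = 5), 1.68-fold lower, with a difference of -0.75 ± 0.24 (SE; 95% interval -1.27 to -0.23). The exact permutation test gave p = 0.0238, and limma gave an adjusted p of 0.564. The permutation p was 0.0556 without control replicate 1 and also without Jag1+/-Rfng+/- replicate 1, and stayed under 0.05 when any of the other 8 arrays was left out. Over the 7 arrays that share a sample-name number, which leaves out the 2 highest controls and the lowest Jag1+/-Rfng+/- sample, the difference was -0.29 (exact permutation p = 0.2).

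Hey2 encodes a repressor known for arterial identity and heart development. Its values were 3.67, 4.05, 4.06, 3.07 and 3.74 in controls and 3.19, 3.39, 3.33, 3.11 and 3.30 in Jag1+/-Rfng+/- samples. Control replicate 4 was the lowest of all 10 arrays, and the other 4 controls were above every Jag1+/-Rfng+/- sample. The Jag1+/-Rfng+/- samples were also closer together, with an SD of 0.11 against 0.40 in controls. They read not far above 2.91, the highest reading of absent genes. The mean of Hey2 over the 10 arrays, 3.49, was under the median over all genes, 3.74. Whether the smaller spread follows from this low level was not tested. The difference was -0.45 ± 0.17 (SE; 95% interval -0.83 to -0.08), 1.37-fold (exact permutation p = 0.0476; limma adjusted p = 0.628). Its exact p was 0.00794 without control replicate 4 and above 0.05, up to 0.0952, when any other single array was left out. The difference was -0.44 over the 7 arrays with the shared number (exact permutation p = 0.229).

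Heyl encodes the last member of the Hey group, known from vascular smooth muscle and other mural cells. It read 6.48, 6.81, 7.41, 6.07 and 5.94 in controls and 4.81, 6.11, 5.65, 6.47 and 5.07 in Jag1+/-Rfng+/- samples. Replicates 1, 3 and 5 of the Jag1+/-Rfng+/- group lay below every control, while replicates 2 and 4 lay among controls. The difference was -0.92 ± 0.34 (SE; 95% interval -1.67 to -0.17), 1.89-fold, which was the largest of the 9 genes in the fit on all 10 arrays. It had the widest spread within groups, with SDs of 0.59 and 0.69, and an exact permutation p of 0.0714 (limma adjusted p = 0.619). Leaving out Jag1+/-Rfng+/- replicate 4 brought the exact p to 0.0397, and no other array left out brought it under 0.05. Over the 7 arrays with the shared number the difference was -0.94 (exact permutation p = 0.143). Without Jag1+/-Rfng+/- replicate 5 among these it was -0.69 (exact permutation p = 0.3).

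Nrarp, the feedback inhibitor, read 4.37, 4.13, 4.50, 3.44 and 3.85 in controls and 3.29, 3.97, 3.38, 3.92 and 3.71 in Jag1+/-Rfng+/- samples. Control replicates 1, 2 and 3 were above every Jag1+/-Rfng+/- sample, and control replicate 4 was among the lowest arrays. The difference was -0.40 ± 0.21 (SE; 95% interval -0.86 to 0.05; exact permutation p = 0.127; limma adjusted p = 0.755). Rbpj, the DNA-binding partner, read 5.43, 5.65, 5.40, 4.83 and 5.43 in controls and 5.73, 5.15, 5.02, 5.13 and 5.19 in Jag1+/-Rfng+/- samples. The highest and the lowest reading of Rbpj thus each came from 1 array, Jag1+/-Rfng+/- replicate 1 and control replicate 4, and the groups overlapped. Its difference was -0.11 (95% interval -0.48 to 0.27; limma adjusted p = 0.929). Leaving out control replicate 2 or Jag1+/-Rfng+/- replicate 3 gave -0.03 and -0.05, and leaving out control replicate 4 or Jag1+/-Rfng+/- replicate 1 gave -0.24 and -0.23.

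**Figure D2:**
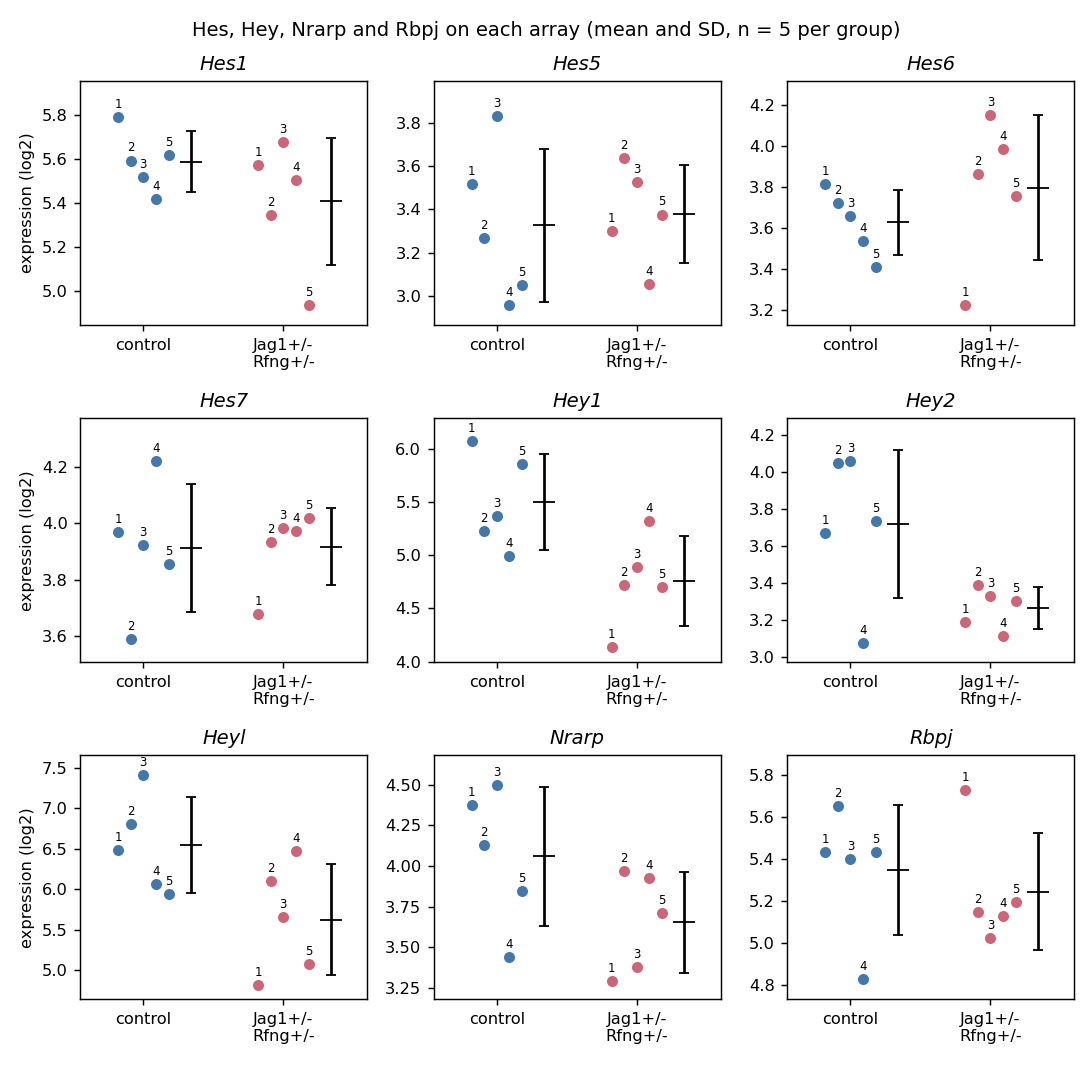
Log2 expression (y axis, a different range in each panel) of the 9 effector genes on each array, with control in blue and Jag1+/-Rfng+/- in red, replicate numbers beside the points, and bars for mean and SD (n = 5 per group). The groups overlap in every panel. For Hey1, 4 of 5 Jag1+/-Rfng+/- arrays lie below every control.

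The contrast of the Hey genes with Hes1 was chosen with earlier results of these data known. Whether a Hey gene changed more than Hes1 was tested by taking, on each array, its log2 value minus that of Hes1. Only the change of this value between groups carries meaning, because the 2 probe sets differ in brightness. For Hey1 it was 0.28, -0.37, -0.15, -0.43 and 0.24 in controls and -1.43, -0.62, -0.79, -0.18 and -0.24 in Jag1+/-Rfng+/- samples. The groups overlapped, with 3 Jag1+/-Rfng+/- samples below every control, and the change was -0.57 (exact permutation p = 0.0635, 0.179 after Benjamini-Hochberg adjustment over the 3 pairs). For Heyl the change relative to Hes1 was -0.74 (exact permutation p = 0.119, adjusted 0.179), from 0.32 to 1.89 in controls and from -0.76 to 0.97 in Jag1+/-Rfng+/- samples. For Hey2 it was -0.27 (exact permutation p = 0.222, adjusted 0.222). The lower Hey readings relative to Hes1 were thus within the spread between samples, and none of the 3 differences from Hes1 passed the test. Over the 7 arrays with the shared number the change was -0.14 for Hey1, -0.30 for Hey2 and -0.79 for Heyl. With any single array left out, the change stayed negative for all 3 genes, from -0.68 to -0.37 for Hey1, -0.40 to -0.17 for Hey2 and -0.93 to -0.50 for Heyl. The smallest values came without Jag1+/-Rfng+/- replicate 1 for Hey1 and Heyl and without control replicate 3 for Hey2.

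**Figure D3:**
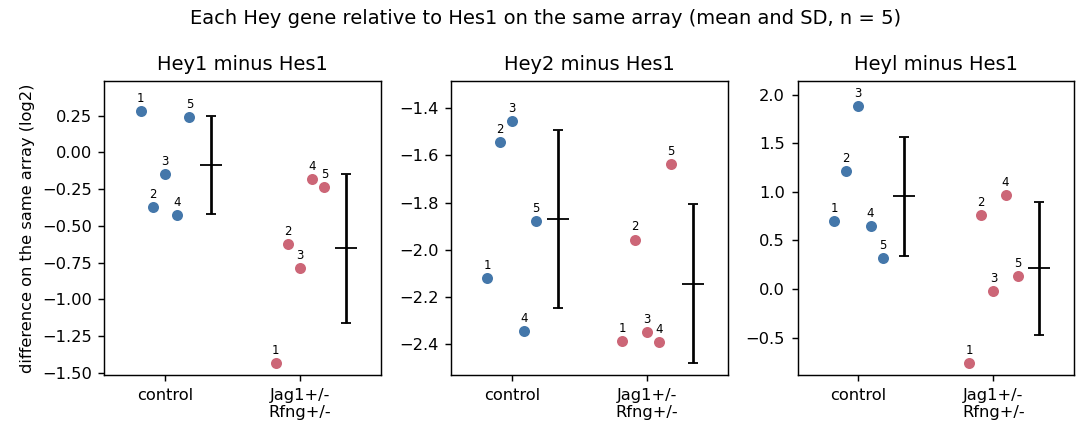
Log2 value of Hey1, Hey2 and Heyl minus that of Hes1 on the same array (y axis) in control (blue) and Jag1+/-Rfng+/- (red) samples, with replicate numbers, means and SDs (n = 5). In each panel 3 Jag1+/-Rfng+/- arrays lie below every control and the others overlap with them.

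The variation of the effector genes over the arrays was then compared with that of Jag1, of vessel markers and of other parts of the tract. Each of the 9 genes was set against Jag1, Rfng and the mean of 8 marker lists, each list's genes centred over the arrays, which makes 90 relations, tested with 100000 permutations and Benjamini-Hochberg adjustment over all 90. Pearson's r passed for 11 relations, 5 of Heyl, 4 of Nrarp and 2 of Hey2, and for 0 of Hey1, Hes1, Hes5, Hes6, Hes7 and Rbpj. Spearman's rho passed for 10, and 9 passed by both. With each group's mean removed first, 5 passed, all of them the relations of Heyl, and the 6 of Nrarp and Hey2 did not. The number is carried by few arrays. It was 4 when control replicate 3 was left out and 5 when Jag1+/-Rfng+/- replicate 1 was. It was 7 when the array left out was control replicate 1, control replicate 2 or Jag1+/-Rfng+/- replicate 2. All 11 kept their sign under every array left out, and over the 7 arrays with the shared number 4 passed.

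Heyl followed Jag1 with r = 0.93 (permutation p = 0.00016, adjusted p = 0.00288; rho = 0.92, permutation p = 0.00049, adjusted p = 0.00882). The 2 lowest Jag1 arrays, Jag1+/-Rfng+/- replicates 5 and 1, were also the 2 lowest for Heyl, and the 3 highest, control replicates 1, 2 and 3, were the 3 highest for Heyl. Without control replicates 2 and 3, the arrays farthest from the median of Jag1, r was 0.90. It was 0.89 with group means removed and 0.93 over the 7 arrays with the shared number. Of all genes, 1.92% had an r with Jag1 of at least 0.8, and so did 3 of the 9 effector genes, Heyl, Nrarp and Hey2. Heyl was thus in the upper tail of all genes (percentile 99.8). Nrarp reached r = 0.82 with Jag1 (permutation p = 0.00372, adjusted p = 0.0372; rho = 0.84, permutation p = 0.00349, adjusted p = 0.0349). It was 0.75 both without the 2 farthest arrays and with group means removed (permutation adjusted p = 0.172 for the latter), and 0.76 over the 7 arrays. The relation of Nrarp with Jag1 missed the threshold without any 1 of control replicates 1, 2, 3 and 5 and Jag1+/-Rfng+/- replicates 1 and 2. Its permutation adjusted p then rose above 0.05, with a highest value of 0.161.

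Hey2 had r = 0.82 with Jag1 (permutation p = 0.00477, adjusted p = 0.0398; rho = 0.71, permutation p = 0.0272, adjusted p = 0.125). Without control replicates 2 and 3 it was 0.51 (exact permutation p = 0.202). Leaving out these arrays, the highest for Jag1, also shortens the range of Jag1. With any single array left out r was 0.75 to 0.88. The relation missed the threshold without any 1 of control replicates 1, 2 and 3 and Jag1+/-Rfng+/- replicates 1, 2 and 3. Hey1 moved the other way when control replicates 2 and 3 were left out. Its r with Jag1 was 0.64 (permutation p = 0.0435, adjusted p = 0.187; rho = 0.76, permutation p = 0.0155, adjusted p = 0.0931), but 0.85 without control replicates 2 and 3, where Jag1 was highest and Hey1 was not. With group means removed it was 0.33. Hes1 had r = 0.52 with Jag1 (permutation p = 0.126, adjusted p = 0.375; rho = 0.44, permutation p = 0.205, adjusted p = 0.53). Its lowest array, Jag1+/-Rfng+/- replicate 5, was also the lowest for Jag1, and without that array r was 0.25. Rfng gave no relation past the threshold, with r between -0.26 (Hes5) and 0.60 (Hey1).

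**Figure D4:**
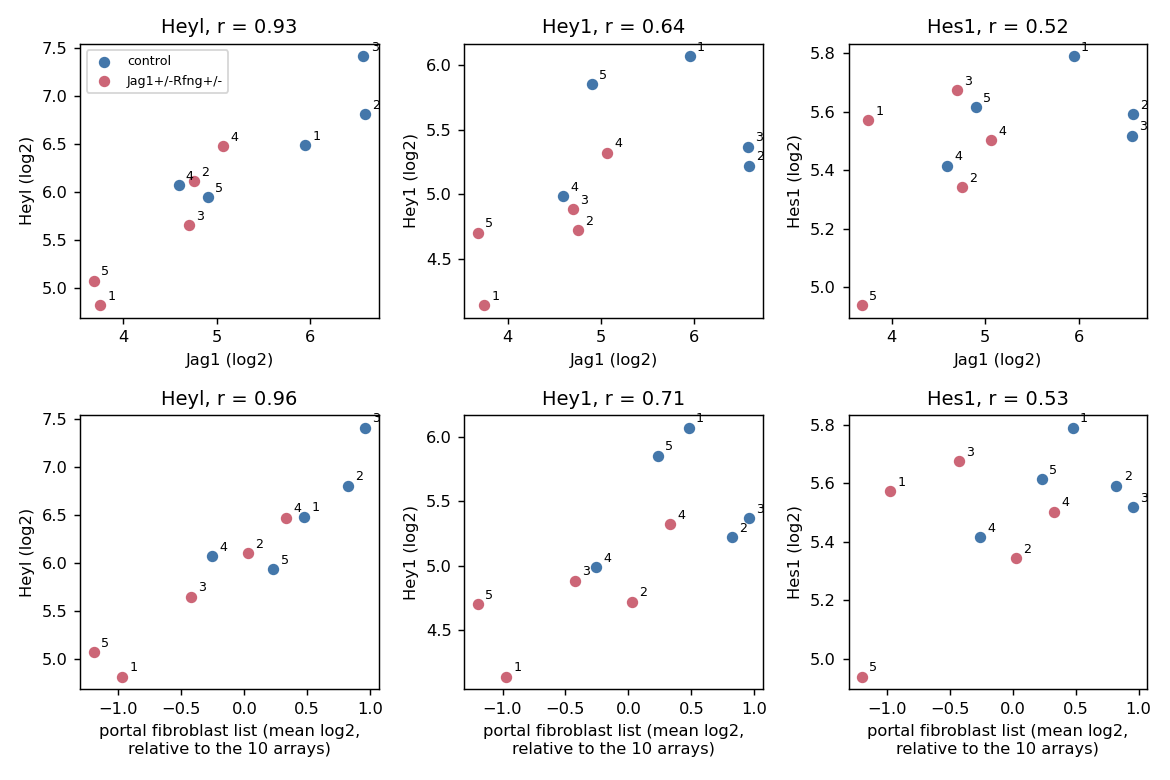
Log2 values of Heyl, Hey1 and Hes1 (y axes) against Jag1 (log2, upper row) and against the mean of the portal fibroblast markers (log2 relative to the 10 arrays, lower row), 1 point per array, with control in blue and Jag1+/-Rfng+/- in red. Heyl rises along both x axes in both groups (r = 0.93 and 0.96). Hes1 gives 0.52 and 0.53, with Jag1+/-Rfng+/- replicate 5 as its lowest point.

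Among vessel markers, the arterial list passed with Heyl, Nrarp and Hey2 and the pericyte list with Heyl, and the general endothelial list did not pass for any of the 9 genes. Heyl had r = 0.91 with the 10 arterial genes (permutation adjusted p = 0.00288; rho = 0.90; without control replicates 3 and 2, 0.83; group means removed, 0.87). The adjusted p missed 0.05 without control replicate 3 (r = 0.87, adjusted p = 0.0564 by permutation). Nrarp had r = 0.86 with the arterial list (permutation adjusted p = 0.0139), lost without control replicate 3 or Jag1+/-Rfng+/- replicate 1. Hey2 had r = 0.83 (permutation adjusted p = 0.0331), which fell to 0.53 without control replicates 3 and 2. It missed the threshold without any 1 of control replicates 1, 2 and 3 and Jag1+/-Rfng+/- replicates 1, 2 and 3. Hey1 reached r = 0.57 (permutation adjusted p = 0.299; rho = 0.81) and Hes1 r = 0.41 (permutation adjusted p = 0.573). Of all genes, 2.23% had r of at least 0.8 with this list, as 3 of the 9 effector genes did. Efnb2, the arterial ligand ephrin B2 and itself a Notch target, is in the list.

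With the 6 pericyte genes Heyl had r = 0.91 (permutation adjusted p = 0.00288; rho = 0.98) and 0.88 without control replicates 3 and 2. Nrarp had r = 0.74 (permutation adjusted p = 0.0811) and Hey2 r = 0.71 (permutation adjusted p = 0.113). With the vascular smooth muscle list Heyl had r = 0.76 (permutation adjusted p = 0.078; rho = 0.79), 0.78 without Jag1+/-Rfng+/- replicates 4 and 1. It passed without control replicate 4 or Jag1+/-Rfng+/- replicate 4, with adjusted p of 0.0498 and 0.0339 by permutation. Hey1 had r = 0.59 with smooth muscle. For the endothelial list r was 0.62 for Heyl (permutation adjusted p = 0.233), 0.18 for Hes1 and 0.11 for both Hey1 and Hey2. Over the 7 arrays with the shared number it was 0.90 for Hey1 (exact permutation p = 0.00437, unadjusted), 0.65 for Hes1, 0.71 for Heyl and 0.21 for Hey2. For Hey1 it was -0.09 without Jag1+/-Rfng+/- replicate 4 and control replicate 3, and 0.17 with group means removed. With the venous list Hey2 had r = -0.69 and Nrarp r = -0.58 (permutation adjusted p = 0.137 and 0.261). At an r of at least 0.8, Heyl was the 1 effector gene for pericytes (1.71% of all genes), and there were 0 for smooth muscle (1.14%), endothelium (0.658%) and the venous list (0.225%).

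The relations were not particular to vessels. Heyl had r = 0.97 with the biliary list (permutation adjusted p = 0.0027; rho = 0.98; 0.93 without control replicate 3 and Jag1+/-Rfng+/- replicate 1; group means removed, 0.96). It had r = 0.96 with the portal fibroblast list (permutation adjusted p = 0.0027; rho = 0.95; 0.92 without Jag1+/-Rfng+/- replicates 5 and 1; group means removed, 0.93). Nrarp had r = 0.86 and 0.81 with these lists (permutation adjusted p = 0.0156 and 0.0398), of which the biliary one was lost without control replicate 3 or Jag1+/-Rfng+/- replicate 1. Its relation to portal fibroblasts was lost when any 1 array other than control replicate 4 or Jag1+/-Rfng+/- replicate 5 was left out. At an r of at least 0.8 these 2 genes stood with 1.86% of all genes for the biliary list and 1.99% for portal fibroblasts. With hepatocyte markers Heyl had r = -0.04. The lists overlap in what they follow, since the same arrays are high in the arterial, pericyte, fibroblast and biliary lists, and Sox9, a Notch target, is one of the biliary genes.

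**Figure D5:**
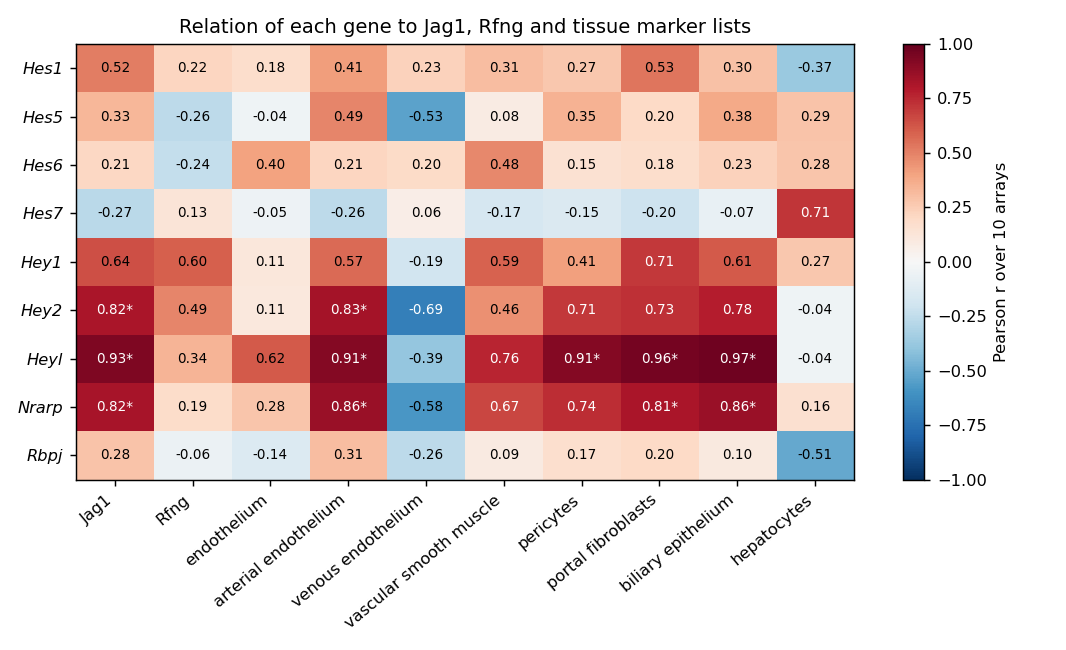
Pearson's r over the 10 arrays (colour and printed value) of each effector gene (rows) with Jag1, Rfng and the mean of 8 marker lists (columns), where an asterisk marks the 11 relations with a permutation p under 0.05 after adjustment over all 90. The asterisks lie in the rows of Hey2, Heyl and Nrarp, and the endothelium column has none.

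The means of some of these marker lists were also lower in the Jag1+/-Rfng+/- samples, although 0 genes of any list passed limma's adjusted test and every list overlapped between the groups. The portal fibroblast list lay between -0.26 and 0.96 in controls and between -1.19 and 0.33 in Jag1+/-Rfng+/- samples (log2, relative to the 10 arrays), with 11 of 12 genes lower and a median difference of -0.92. Of the biliary genes 7 of 9 were lower (list mean -0.05 to 0.59 in controls, -0.54 to 0.04 in Jag1+/-Rfng+/- samples). Of these 7 lower genes, 2 had means within the range of absent genes. The 2 higher genes, among them Cldn4 with a difference of 0.52, had means above that range. Pericyte genes were lower in 5 of 6 (-0.30 to 0.82 against -0.43 to 0.06) and arterial genes in 10 of 10 (-0.31 to 0.76 against -0.41 to 0.04). The endothelial list had 6 of 15 genes lower and a median difference of 0.06, and 9 of 12 smooth muscle genes were lower. Of 8 macrophage markers 7 were higher, with a median difference of 0.21. These counts stand beside 51.5% of all genes with a lower mean. In limma fits with a list's mean as a covariate, the group difference of Heyl was 0.02 with portal fibroblasts, 0.09 with biliary markers, -0.72 with smooth muscle and -0.93 with endothelium. For Nrarp it was 0.02 and 0.09 with the first 2 lists and -0.31 and -0.41 with the others. Hey1 read -0.43 with portal fibroblasts, -0.55 with biliary markers, -0.64 with smooth muscle and -0.75 with endothelium. Hey2 read -0.21, -0.16, -0.41 and -0.46 in the same order. A change in the cell makeup of the captured tissue and a change within cells cannot be told apart by these fits, since the lists differ between the groups.

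By name, the vessel genes with the lowest p of their lists were Nrp1, Efnb2 and Gja5 for arteries, at -0.60, -1.01 and -0.56. Nrp1, a coreceptor of VEGF, did not overlap between groups. Pericyte genes Rgs5, Pdgfrb and Cspg4 differed by -0.87, -0.95 and -0.27, and the contractile genes Lmod1, Tagln and Acta2 by -0.63, -0.62 and -0.57. These 3 do not stand for their list, since the median difference over the 12 smooth muscle genes was -0.12 and 3 of the 12 were higher. Of the venous genes 6 of 7 were higher in mean, with a median difference of 0.30. Selp and Rspo3 were higher by 0.83 and 1.16 while Nr2f2, the venous fate regulator COUP-TFII, was lower by 0.50. The endothelial genes Ptprb, Esam and Robo4 differed by 0.34, -0.38 and 0.27. None of these passed limma's test after adjustment over all genes.

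The rest of the Notch pathway showed 0 genes past the adjusted limma threshold of 71 measured of 75 listed, besides the 9 effectors. At an unadjusted limma p under 0.05, 6 were lower, which were the ligands Jag1 and Dll1, the fringe Rfng and the target genes Ccnd1, Efnb2 and Sox9. A further 2 were higher, the cell cycle inhibitor Cdkn1a and the ubiquitin ligase Neurl1a. The median difference was -0.08, with 48 of 71 lower in mean, against 51.5% of all genes. Of the 4 receptors, all were lower in mean, and 0 had an unadjusted limma p under 0.05. Notch3, the receptor of mural cells, differed by -0.67 (limma adjusted p = 0.771), Notch1 by -0.16 and Notch4 by -0.13. The ligand Dll1 differed by -0.40 and Dll4, which is expressed in arterial endothelium, by -0.39. The glycosyltransferases Poglut1 and Pofut1 differed by -0.29 and -0.14, and the processing genes Neurl1a, Adam17 and Psen2 by 0.35, -0.26 and 0.30. The coactivators Crebbp, Maml2 and Maml1 differed by -0.18, -0.31 and -0.13, and the corepressors L3mbtl3, Tle4 and Spen by -0.18, 0.25 and -0.12. Among other targets Ccnd1, cyclin D1, differed by -0.70 and Cdkn1a by 0.54. The pathway list was assembled by role. At an unadjusted limma p under 0.05, 3.79% of all genes were lower and 2.98% higher. The list's own share does not describe the rest of the pathway alone. Its 6 lower genes include Jag1 and Rfng, which the genotype itself alters, and Efnb2 and Sox9, which are also in the arterial and biliary lists.

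Of 5 other Hes-related genes, Hes2, Hes3, Helt and Bhlhe41 had means below the highest reading of absent genes, and Bhlhe40 differed by 0.14. Hes2 differed by 0.16 and Hes3 by -0.10 at those low readings. Among genes known to be repressed by Hes1, the cell cycle inhibitors Cdkn1b and Cdkn1c differed by -0.18 and -0.51, and Neurog3, whose mean lay in the range of absent genes, by 0.17.

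Within the 9 genes, 36 pairs were compared over the 10 arrays with permutation tests. Heyl and Nrarp varied together, with r = 0.83 (permutation p = 0.00382, adjusted p = 0.0688 over the 36) and rho = 0.92 (permutation p = 0.0006, adjusted p = 0.0216), and r was 0.75 with group means removed and 0.63 without the 2 farthest arrays. Hey2 and Nrarp had r = 0.76 (permutation adjusted p = 0.168), and Hey1 and Heyl r = 0.63 (permutation adjusted p = 0.29). For Hes1 the values were r = 0.48 with Hey1, 0.36 with Heyl, 0.32 with Hey2 and 0.19 with Nrarp (permutation adjusted p from 0.508 to 0.886), though the difference between these correlations was not tested. Hes7 and Rbpj had r = -0.90 (permutation adjusted p = 0.0115) and rho = -0.83 (permutation adjusted p = 0.081), with r = -0.81 without the 2 farthest arrays. Both genes have a second probe set, and the other combinations of probe sets gave r of -0.23, -0.40 and 0.26. The second Rbpj probe set had a mean of 2.89 and read within the range of absent genes on 5 arrays.

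The genes whose pattern over the 10 arrays was most like that of each effector were sought among 12595 named genes with a mean above the readings of absent genes, by Pearson's r, as a description. For Heyl they were Cd34, Neo1 and Maged2 (r = 0.975, 0.975 and 0.970), and each was lower in Jag1+/-Rfng+/- samples, by 0.78, 0.56 and 0.61. Cd34 is a surface protein of fibroblasts and endothelium and is in the portal fibroblast list. For Nrarp they were Lgr6, Col15a1 and Tmem63a (r = 0.970, 0.966 and 0.956), of which Col15a1, a collagen of basement membrane zones, is in the same list. For Hey2 they were the duct keratin Krt19, the T cell gene Cd8a and Rap2a (r = 0.922, 0.920 and 0.910). For Hey1 they were Fhl1, Kremen1 and Mepce (r = 0.958, 0.925 and 0.908), of which Fhl1 is a LIM-domain gene of muscle. The nearest genes of the 3 Hey genes and Nrarp were thus 12 different genes. For Hes1 they were Blmh, Trim14 and Rdh10 (r = 0.947, 0.944 and 0.930), for Hes5 Ifi203-ps, Hmga2-ps1 and Rgs9 (0.915, 0.892 and 0.883), and for Hes6 the neutrophil gene Mpo, Aup1 and Cpne6 (0.907, 0.905 and 0.893). For Hes7 they were Shmt2, Cyhr1 and Gipc2 (r = 0.960, 0.888 and 0.879), and for Rbpj Scyl3, Zfp831 and Rab3c (r = 0.956, 0.912 and 0.910). Each r is the highest found in a search of 12595 genes over 10 arrays and carries no test.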

How the data were processed

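Laser-captured portal tracts of 5 control and 5 Jag1+/-Rfng+/- samples were measured on single-colour arrays. The log2 values were deposited by the authors for 33649 probe sets, ranging from 1.08 to 12.47, with array medians from 3.22 to 3.30. The submitters' processing notes name RMA and Partek 6.6 without saying what each did. RMA usually equalizes the arrays' distributions and compresses folds of dim genes. The number of arrays limits the precision. Scanner files were not used here, so no detection calls were at hand, and 0 columns belonged to no sample. Platform annotation gave 1 symbol for 23521 probe sets, several for 1814 and none for 8314. Per gene, the 1-symbol probe set with the highest mean was used (22180 genes). Some genes of the lists are not reported here.

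The test across genes was limma 3.58.1 under R 4.3.3 (lmFit, eBayes, two-sided, no covariate, threshold 0.05 after Benjamini-Hochberg adjustment over all genes) and, for single genes, with exact two-sided permutation over 252 splits. Correlations used 100000 two-sided permutations (scipy 1.17.1, exact with fewer than 10 arrays). The genes named are the 9 effectors, Jag1 and Rfng, the 3 lowest-p genes of each Notch and vessel list and the 3 genes most correlated with each effector. Slpi, Mme and Cldn4 were chosen for naming once their values were known. The members, the lists and the contrast of the Hey genes with Hes1 were chosen with earlier results of these data known. The limma fit was tested on simulated data with known changes. Alternatives were other normalizations, filters, weights, subsets and covariates, of which the smooth muscle and biliary covariates were added after seeing the data.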

Additional observations from a re-analysis of the deposited data

Results flagged for a closer look

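In 28 groups of 5 values (the effector genes and other values in each genotype), a sample lay far from the 4 others in 2, where chance alone gives about 1 in 20. In Jag1+/-Rfng+/- replicate 1 Hes7 read 3.68, and the nearest of the other Jag1+/-Rfng+/- samples read 3.93. In the same sample Rbpj read 5.73, and the nearest other read 5.19. That array also had the lowest Hey1, Heyl and Hes6 readings of all 10.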

How the results depend on the processing

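None of the 9 effector genes passed the adjusted threshold under any of the 25 alternatives run, of which the filter on genes above the median level held 6 of the 9. The number of all genes past it, 2, ranged from 2 to 6 when an array was left out. It was 0 over the shared-number arrays without Jag1+/-Rfng+/- replicate 5 (1215 genes had an unadjusted limma p under 0.05), 11 among genes above the median level, 11 with trend and robust eBayes, 5 with array weights, 13 with the endothelial covariate, and 1 each with the portal fibroblast and biliary covariates. The replicate numbers did not pair the samples (same-number correlations of deviations -0.06, 0.03, 0.02, -0.23 and 0.06; 1 of 10 samples correlated best with its own number), and with the replicate block 2 genes and 0 effector genes passed. Hes1, Hes6, Hey1, Hey2 and Rbpj kept their sign under every alternative run. Hes5 ranged from -0.038 to 0.18 with an array left out. Hes7 ranged from -0.075 to 0.084 with an array left out and read -0.0023 after quantile normalization, -0.0073 after median centring, -0.00040 after cyclic loess, and -0.069, -0.0057 and -0.019 with the portal fibroblast, smooth muscle and biliary covariates. Heyl read 0.016 and 0.086, and Nrarp 0.021 and 0.087, with the portal fibroblast and biliary covariates, and the cause was not tested. Of the relations, 11 passed, 4 to 14 with an array left out, 4 over the shared-number arrays, 0 without replicate 5 there and 5 with group means removed, and the cause was not tested. Signs were followed under these alternatives for Hes1, Hey1, Hey2, Heyl and Nrarp, against Jag1 and the lists other than venous and hepatocyte. Among these, Hes1 turned with biliary markers (-0.0052 to 0.45 with an array left out). Hes1 also turned with endothelium (-0.26 to 0.38, with -0.063 after quantile normalization and -0.13 after cyclic loess). Hey1 turned with endothelium (-0.052 to 0.40) and with pericytes (-0.0081 with group means removed), and Hey2 with endothelium (-0.12 to 0.56). Some of the other relations turned as well. Heyl with Rfng was 0.34, and -0.38 with group means removed. Hes6 with Jag1 was 0.21, and -0.23 over the shared-number arrays. No detection calls were at hand, so distance from background is known only against the absent genes.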
